A study of Mus musculus with 8 samples.

Results

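The genes of glycolysis, of glucose uptake and of lactate and pyruvate transport were examined in cultured mouse tendon-derived stem cells (TSCs), as a set of 37 genes chosen by symbol for their place in the pathway. All 37 were among the 19301 genes of the deposited table. Messenger RNA of primary TSCs was sequenced after 4 days in 1 of 2 media, with 4 biological replicates each: low glucose medium with the DMSO vehicle (LG), or high fat, high glucose medium (HFHG), which holds more glucose and also palmitic acid, a saturated fatty acid. The cells came from the patellar tendon of C57BL/6J mice and no gene was altered in either group. The paper does not say whether the replicates came from different mice. The spread behind each p may therefore be that between cultures rather than between mice. Glucose and palmitic acid were changed together, so their effects cannot be told apart.

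Library totals recovered from the deposited values were 34308108 to 37362725 reads, which need not equal the reads sequenced. The first principal component took 81% of the variance and separated the media, and the second took 4.18% and set LG replicate 4 apart from the rest. Of 11 tendon cell markers all passed the filter on low values, but Scx (2.27 ± 0.558 FPKM in HFHG and 1.45 ± 0.336 in LG) and Tnmd (1.10 ± 0.0908 and 0.614 ± 0.298; SD, n = 4) were low. Markers of macrophages were also present. The summed FPKM of 12 such genes was 1759 to 1808 in HFHG and 1924 to 2008 in LG, most of it Lyz2. FPKM, the unit throughout, is a read number scaled to gene length and to library depth.

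Glycolysis converts glucose to pyruvate in the cytosol. Glucose enters through transporters of the SLC2A family, is trapped by hexokinase as glucose-6-phosphate, and is committed to glycolysis at phosphofructokinase-1. Pyruvate is then either reduced to lactate, which leaves the cell through monocarboxylate transporters, or carried into mitochondria. Tendon is sparsely vascularized, and its cells are known to rely in part on glycolysis.

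Of the 37 genes, 34 passed the filter of 0.5 FPKM in at least 4 of the 8 libraries. In HFHG, 20 of these 34 were lower and 7 were higher at an adjusted p below 0.05 in limma, a linear model fitted over all 11710 tested genes. The remaining 7 tested genes did not pass, and 3 lay below the filter. The background in this comparison was high: 64.8% of all tested genes passed, 34% higher and 30.8% lower, against 79.4% of the glycolytic and transport genes, 20.6% higher and 58.8% lower. The median log2 fold change was -0.22 over the 34 genes and 0.02 over all tested genes, and the median absolute log2 fold change was 0.35 and 0.25. The FPKM of the groups did not overlap for 27 of the 34 genes, against 59.2% of all tested genes. An absolute log2 fold change of 0.5 or more was reached by 5 of the lower genes and 3 of the higher ones (background 9.29% lower and 12.7% higher), and 2 genes, Slc2a1 and Hk2, fell past a fold change of 2 (background 1.65% lower and 3.68% higher), of which Slc2a1 lay just short of it after quantile normalization (-0.90) or rescaling to the same sum (-0.98). In these bulk libraries, fewer cells of a type and less RNA per cell cannot be told apart.

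**Figure D1:**
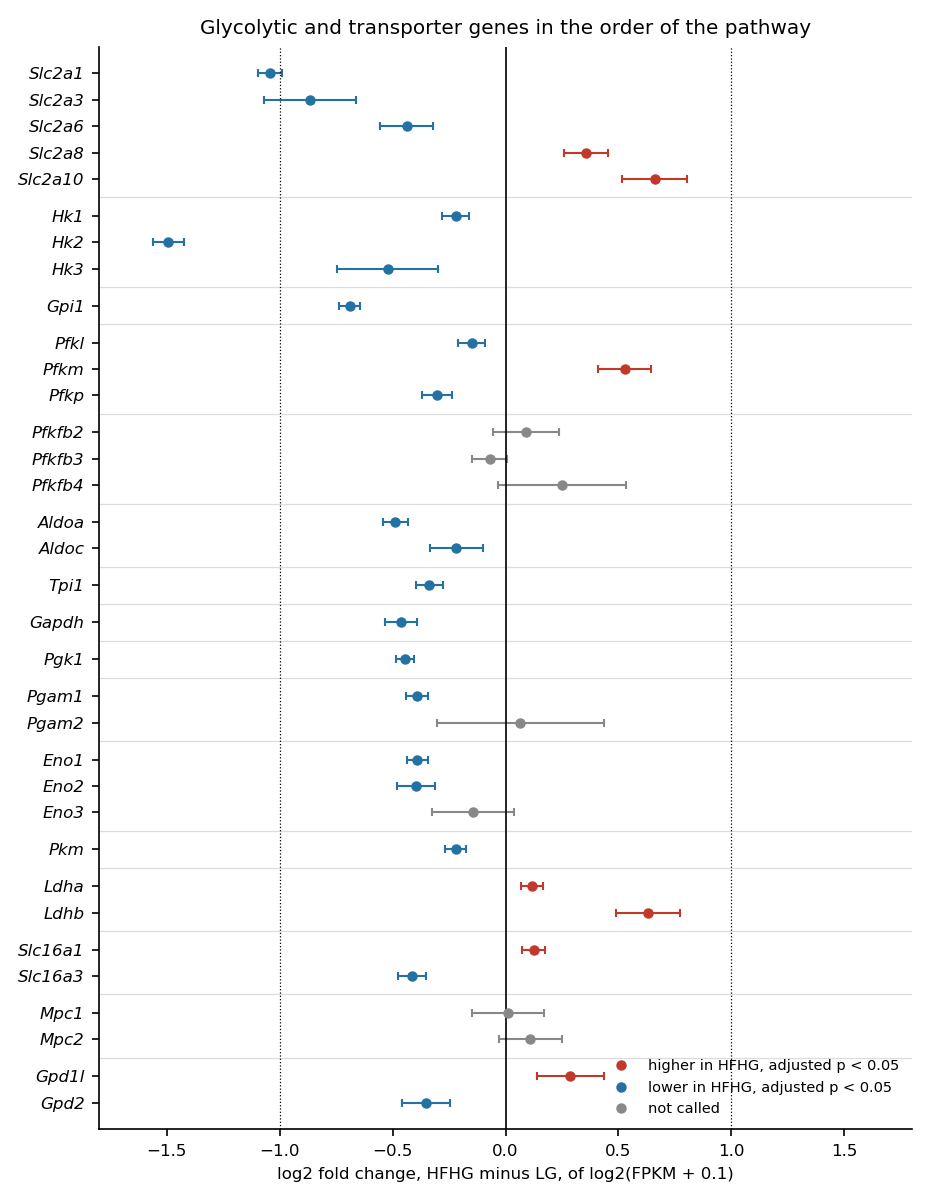
Log2 fold change (HFHG minus LG) of the 34 tested genes in the order of the pathway, with points for the limma estimate, bars for its 95% confidence interval and dotted lines at a fold change of 2. Points left of 0 are lower in HFHG: 20 genes in blue, with Hk2 at -1.49 and Slc2a1 at -1.04, against 7 higher genes in red and 7 grey genes that did not pass.

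The proximal promoters of 2 genes that fell most and 2 that rose most are shown, because hypoxia-inducible factors and MYC, known activators of glycolytic genes, bind short motifs in such regions. They are the 250 bases before the RefSeq transcription start (build GRCm38.p6), read 5′ to 3′ on the strand of the gene, and capitals mark ACGTG or GCGTG, the core of the hypoxia response element, on either strand (as CACGT or CACGC on the other). Hk2 lies on the minus strand, chr6:82774455-82774704. Slc2a1 lies on the plus strand, chr4:119108495-119108744. Slc2a10 lies on the plus strand, chr2:165503647-165503896. Ldhb lies on the minus strand, chr6:142507958-142508207.
Hk2: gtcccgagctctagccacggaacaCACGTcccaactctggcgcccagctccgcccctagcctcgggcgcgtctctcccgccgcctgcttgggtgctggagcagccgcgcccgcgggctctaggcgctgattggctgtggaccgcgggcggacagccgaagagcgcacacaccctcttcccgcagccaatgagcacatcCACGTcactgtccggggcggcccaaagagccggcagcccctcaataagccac
Slc2a1: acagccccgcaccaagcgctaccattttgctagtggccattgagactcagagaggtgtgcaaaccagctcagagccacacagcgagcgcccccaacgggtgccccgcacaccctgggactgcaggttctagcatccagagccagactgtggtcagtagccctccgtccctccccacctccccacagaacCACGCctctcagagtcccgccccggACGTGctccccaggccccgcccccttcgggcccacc
Slc2a10: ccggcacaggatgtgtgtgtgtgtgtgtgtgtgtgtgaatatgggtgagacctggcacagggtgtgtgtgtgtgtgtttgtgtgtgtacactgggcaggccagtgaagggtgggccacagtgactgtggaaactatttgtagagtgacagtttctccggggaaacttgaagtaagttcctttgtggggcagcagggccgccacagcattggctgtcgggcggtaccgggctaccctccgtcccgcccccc
Ldhb: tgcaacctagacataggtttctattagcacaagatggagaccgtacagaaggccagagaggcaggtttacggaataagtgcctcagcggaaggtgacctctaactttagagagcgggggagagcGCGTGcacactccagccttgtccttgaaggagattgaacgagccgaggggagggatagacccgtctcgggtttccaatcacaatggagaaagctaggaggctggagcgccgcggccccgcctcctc

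The windows of Hk2 and Slc2a1, which fell, each held 2 matches. In Slc2a1 they began 61 and 36 bases before the start, and in Hk2 226 and 52 bases before it. Of the genes that rose, Ldhb held 1 match, 126 bases before the start, and Slc2a10 held none. Windows were found for 34 of the 37 genes (53 windows, since some genes have several starts whose windows can overlap), and 73.6% of them held ACGTG or GCGTG, against 55.8% of the 11968 windows of tested genes and 38.6% of all 32851. Genes that fell and genes that rose were not separated by this motif, which was in 74.1% of 27 and 81.8% of 11 windows. The E-box CACGTG, which MYC can bind and which contains ACGTG, was in 0 of the 27 windows of genes that fell and in 4 of the 11 windows of genes that rose, those of Gpd1l, Ldha, Pfkm and Slc16a1. It was also in 2 of the 11 windows of genes that did not pass, and in 8.31% of the windows of tested genes and 6.02% of all windows. These are matches of letters and say nothing of binding.

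Glucose transporters fell as a sum, because the dominant one fell. Slc2a1 (GLUT1, the basal transporter of most cells, chr4:119108711-119137983 in GENCODE M21) was at 169, 175, 166.5 and 173 FPKM in HFHG replicates 1 to 4 and at 349.9, 348, 349 and 363 in LG replicates 1 to 4. The 4 HFHG libraries all lay under the LG libraries, a log2 fold change of -1.04 ± 0.02 (SE, limma adjusted p = 2.46e-12). Values of single libraries are given in this order of replicates below.

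Slc2a3 (GLUT3, a high-affinity transporter) was much less abundant, at 1.46, 1.92, 1.89 and 1.61 FPKM in HFHG and 3.256, 3.001, 3.258 and 3.263 in LG. Its groups did not overlap either (log2 fold change -0.86 ± 0.09, limma adjusted p = 3.92e-06). Slc2a10 (GLUT10) moved the other way, from 4.61, 4.72, 3.97 and 4.45 FPKM in LG to 6.66, 7.52, 7.29 and 6.797 in HFHG. Every HFHG library was above every LG library (0.66 ± 0.07, limma adjusted p = 2.05e-06). Slc2a8 (GLUT8, an intracellular transporter) rose by 0.36 ± 0.04 and Slc2a6 (GLUT6) fell by 0.44 on the log2 scale (SE 0.05). Slc2a4 (GLUT4, the insulin-responsive transporter of muscle and fat) was below the filter with 2 to 14 reads per library: 0.0257, 0.127, 0.0445 and 0.0964 FPKM in HFHG and 0.131, 0.0176, 0.0452 and 0.0720 in LG. The groups overlapped fully, and a difference was not detectable at this depth (exact two-sided permutation p = 0.829, n = 4). The share of Slc2a1 in the summed FPKM of the 6 transporters was 91.2% ± 0.114 in LG and 82.9% ± 0.670 in HFHG, while that of Slc2a8 was 3.34% ± 0.172 and 8.02% ± 0.353 and that of Slc2a10 1.15% ± 0.0885 and 3.42% ± 0.182 (SD, n = 4).

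Hexokinases phosphorylate glucose, and here the inducible isoform fell furthest. Hk2 (chr6:82725025-82774454), known as the isoform of muscle and proliferating cells, was at 16.8, 16.3, 16.7 and 15.9 FPKM in HFHG and 46.9, 46.8, 46.9 and 45.1 in LG. This 2.82-fold difference was the largest of the 34 genes, with SDs of 0.412 and 0.884 FPKM within the groups (log2 fold change -1.49 ± 0.03, limma adjusted p = 9.90e-13). Hk1, the constitutive isoform bound to mitochondria, was at 57.5, 58.2, 59.7 and 56.2 FPKM in HFHG and 68.7, 65.9, 67.8 and 67.7 in LG. It fell in a narrower range, without overlap of the groups (-0.22 ± 0.03, limma adjusted p = 1.49e-05). Hk3, an isoform known from myeloid cells, was at 2.85, 3.30, 2.87 and 2.46 FPKM in HFHG and 3.58, 3.88, 4.63 and 4.59 in LG. It was lower in each HFHG library than in any LG library (-0.52 ± 0.10, limma adjusted p = 6.81e-04). Of 11 tested macrophage markers, 8 also fell and 1 rose (median log2 fold change -0.31), against 30.8% and 34% of all tested genes. The part of these markers in the result for Hk3 was not tested. As a share of the 3 hexokinases, Hk2 went from 39.3% ± 0.699 in LG to 21.3% ± 0.362 in HFHG and Hk1 from 57.1% ± 0.578 to 75.01% ± 0.418 (SD, n = 4), while the share of Hk3 overlapped between the groups.

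**Figure D2:**
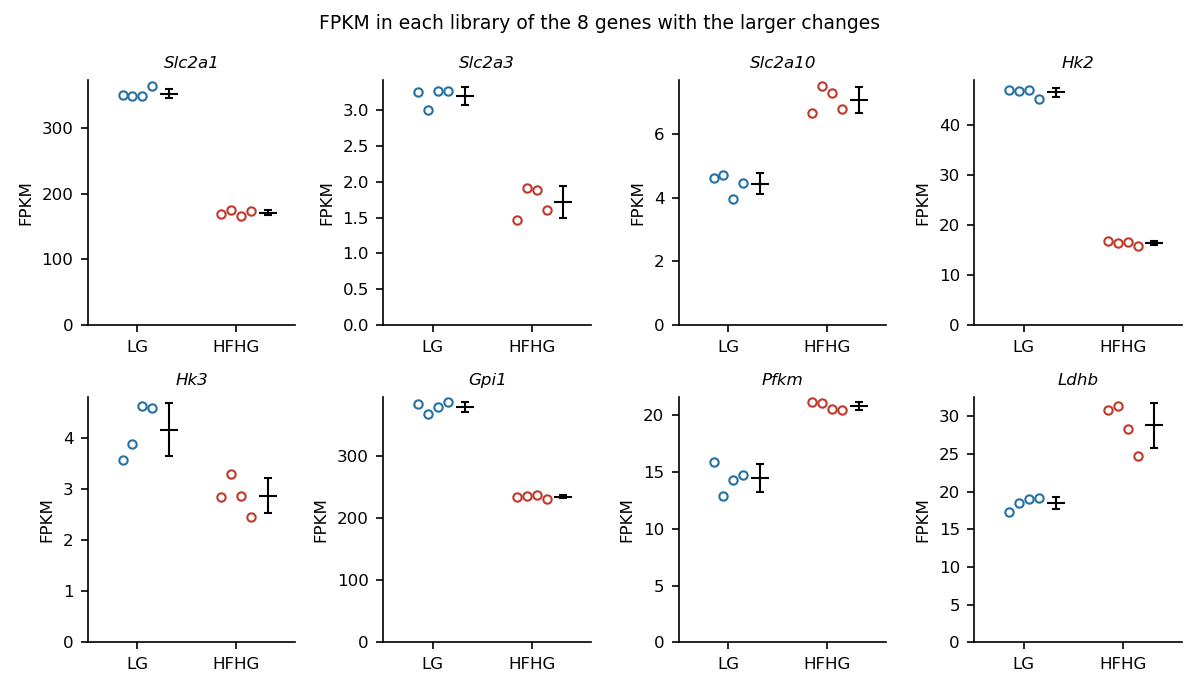
FPKM of the 8 genes with an absolute log2 fold change of at least 0.5 that passed the test, on linear axes from 0, with 1 circle per library (LG in blue, HFHG in red) and the mean ± SD of 4 libraries in black. No gene shows overlap between the media: Slc2a1, Slc2a3, Hk2, Hk3 and Gpi1 are lower in HFHG, and Slc2a10, Pfkm and Ldhb are higher.

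Gpi1, the isomerase that turns glucose-6-phosphate into fructose-6-phosphate, was at 233, 236, 237 and 231 FPKM in HFHG and 383, 368, 378 and 386 in LG. All HFHG libraries were lower, by 38.1% of the LG mean, or -0.69 ± 0.02 on the log2 scale (limma adjusted p = 3.90e-11).

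The subunits of phosphofructokinase-1 moved in different directions. Pfkl, the liver-type subunit and the most abundant here, was at 91.8, 92.7, 90.9 and 90.2 FPKM in HFHG and 99.6, 100, 99.6 and 107 in LG. The groups lay close together without overlap (-0.15 ± 0.03, limma adjusted p = 3.95e-04), and the difference was -0.08 under quantile normalization and -0.09 after rescaling to the same sum. Pfkp, the platelet-type subunit, fell by 0.30 on the log2 scale (SE 0.03). Pfkm, the muscle-type subunit, rose from 15.9, 12.9, 14.3 and 14.7 FPKM in LG to 21.1, 21.1, 20.6 and 20.4 in HFHG. Every HFHG library was above the LG range (0.53 ± 0.05, limma adjusted p = 2.36e-06). Skeletal muscle markers were low and mixed. Of the 15 measured, 11 stayed under 0.5 FPKM in every library and 3 were tested, of which Acta1 and Mb fell. Their summed FPKM was 1.96 to 4.94 in HFHG and 6.45 to 7.13 in LG, but Tnnt3 (0.285 to 0.846 in HFHG and 0.0471 to 0.224 in LG) and Ryr1 (0.0385 to 0.0538 and 0.0183 to 0.0227), both below the filter and picked out after their values were seen, were higher in HFHG without overlap. Their part in the result for Pfkm was not tested. The share of Pfkm in the 3 subunits was 9.36% ± 0.752 in LG and 14.5% ± 0.176 in HFHG (SD, n = 4), and the sum of the subunits was 0.929 times that of LG.

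The bifunctional PFKFB enzymes make and remove fructose-2,6-bisphosphate, the strongest allosteric activator of phosphofructokinase-1. None of the 3 tested passed in limma. Pfkfb3, the most abundant and the one with the highest kinase activity, was at 16.6, 17.5, 16.1 and 16.6 FPKM in HFHG and 17.3, 17.7, 17.6 and 17.5 in LG. The ranges overlapped and the log2 difference was -0.07, with a 95% confidence interval of -0.15 to 0.01 (limma adjusted p = 0.104). The interval was -0.06 to 0.24 for Pfkfb2 and -0.04 to 0.53 for Pfkfb4, the widest of the 3. Without HFHG replicate 2, Pfkfb3 (-0.09, limma adjusted p = 0.0480) and Pfkfb4 (0.34, limma adjusted p = 0.0337) did pass, and Pfkfb4 also passed without LG replicate 3 (0.34, limma adjusted p = 0.0372). Pfkfb3 also passed under median-ratio scaling of the libraries (-0.11, limma adjusted p = 0.0196). Over all 18 alternatives the adjusted p from limma was 0.0196 to 0.817 for Pfkfb3 and 0.0337 to 0.413 for Pfkfb4. Pfkfb1, the liver and muscle isoform, was below the filter with 18 to 43 reads: 0.295, 0.238, 0.387 and 0.266 FPKM in HFHG and 0.227, 0.161, 0.311 and 0.191 in LG. Its groups overlapped (exact two-sided permutation p = 0.171, n = 4).

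In the deposited FPKM, the main gene of each of the 7 steps from aldolase to pyruvate kinase was lower in HFHG, with log2 fold changes between -0.49 (Aldoa) and -0.22 (Pkm). The sizes depended on the scaling. Under quantile normalization, which forces the same distribution on all libraries, the 7 values spread from -0.45 (Gapdh) to 0.13 (Pkm), with Aldoa at -0.25, Pgk1 at -0.20, Pgam1 at -0.14 and Eno1 at -0.06. Aldoa, which splits fructose-1,6-bisphosphate, was at 703, 708, 702 and 680.1 FPKM in HFHG and 974.6, 949, 969 and 1024 in LG. Pgk1, which makes the first ATP of the payoff phase, was at 725, 722, 728 and 708 in HFHG and 977, 975.4, 979.5 and 989 in LG. Both genes were lower in each HFHG library (limma adjusted p = 3.71e-09 and 4.71e-10).

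Tpi1, which interconverts the triose phosphates, was at 627, 636, 622 and 606 FPKM in HFHG and 777, 761, 785 and 826 in LG (-0.34 ± 0.03). Pkm, the pyruvate kinase gene expressed outside liver and red cells, was at 602.5, 608, 609.8 and 591 in HFHG and 707, 686, 696 and 721 in LG (-0.22 ± 0.02). Both were lower in the deposited FPKM (limma adjusted p = 2.17e-07 and 1.59e-06), but quantile normalization turned both directions (Tpi1 to 0.05 and Pkm to 0.13). The muscle and non-muscle pyruvate kinase transcripts of Pkm are 1 row in the table and could not be separated.

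Gapdh, the dehydrogenase that makes NADH in this pathway, was at 43.3, 43.7, 43.3 and 41.0 FPKM in HFHG and 59.2, 57.4, 58.2 and 61.8 in LG (-0.46 ± 0.03, limma adjusted p = 6.01e-08). Its FPKM was far below that of its neighbours Tpi1 and Pgk1. In GENCODE M21, 78.0% of the 100-base windows of its longest coding transcript also occur in transcripts of 86 other genes. Of those genes, 82 are annotated pseudogenes, and the level of Gapdh is therefore uncertain. Pgam1, the mutase, was at 345, 341, 349.9 and 339 FPKM in HFHG and 451, 443, 448 and 464 in LG (-0.39 ± 0.02, limma adjusted p = 6.94e-09). Eno1, the main enolase, was at 573, 569, 575.5 and 568 in HFHG and 750.2, 731, 744 and 771.5 in LG (-0.39 ± 0.02, limma adjusted p = 4.93e-09), a difference that shrank to -0.06 under quantile normalization. Pgk1, Eno1 and Pgam1 also share windows with other genes (67.0%, 59.0% and 39.7%). Eno1b, a near copy of Eno1, was at 127 ± 2.76 FPKM in HFHG and 173 ± 8.66 in LG (SD, n = 4), a log2 fold change of -0.44 that was close to that of Eno1.

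The minor isoforms of these steps were mixed. Eno2, the neuronal enolase, fell by 0.40 and Aldoc, the brain aldolase, by 0.22 on the log2 scale (SE 0.04 and 0.05). Eno3, the muscle enolase (log2 difference -0.15, 95% confidence interval -0.33 to 0.04), and Pgam2, the muscle mutase (0.06, -0.30 to 0.43, 17 to 31 reads per library), did not pass.

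**Figure D3:**
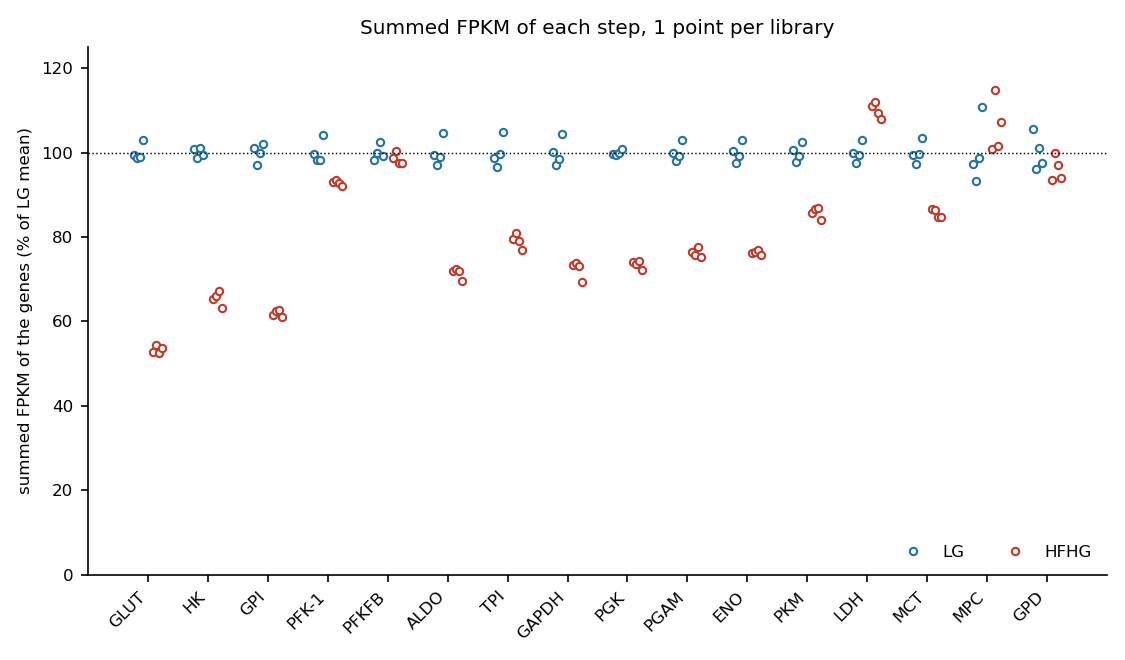
Summed FPKM of the genes of each step in each library as a percentage of the LG mean of that step, from glucose transporters (GLUT) through hexokinase (HK), the isomerase (GPI) and the enzymes of glycolysis to lactate dehydrogenase (LDH), monocarboxylate transporters (MCT), the mitochondrial pyruvate carrier (MPC) and glycerol-3-phosphate dehydrogenases (GPD). HFHG lies lowest for transporters (0.534 times LG), above LG for LDH (1.10 times), and overlaps LG for PFKFB, MPC and GPD.

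Summed over the genes of a step, 12 of 16 steps were lower in HFHG without overlap, 1 was higher and 3 overlapped. Taken singly, 59.2% of all tested genes did not overlap either, so a lack of overlap was common here. The ratio of HFHG to LG was 0.534 for the transporters, 0.654 for the hexokinases and 0.619 for Gpi1. It was then 0.714 for the aldolases, 0.791 for Tpi1, 0.725 for Gapdh, 0.735 for Pgk1, 0.762 for the mutases, 0.763 for the enolases and 0.858 for Pkm. Among the 12 lower steps the ratio was lowest for the transporters, then Gpi1 and then the hexokinases, and highest for phosphofructokinase-1 (0.929). The direction of the single-gene steps Tpi1 and Pkm depended on the scaling, as given above. Together the 37 genes took 1.26 to 1.28% of all FPKM in HFHG and 1.55 to 1.58% in LG.

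Lactate dehydrogenase was the 1 step with a higher sum (572 ± 9.40 FPKM in HFHG and 519 ± 11.6 in LG; SD, n = 4). Ldha, whose subunit favours lactate formation, was at 546, 549.9, 540 and 535.5 FPKM in HFHG and 502, 488.5, 497 and 516 in LG. The rise was 8.41% of the LG mean, and the groups did not overlap (0.12 ± 0.02, limma adjusted p = 4.55e-04), with a log2 fold change of 0.33 under quantile normalization and 0.18 after rescaling to the same sum. Ldhb, whose subunit favours the oxidation of lactate to pyruvate, rose more, from 17.3, 18.5, 19.1 and 19.1 FPKM in LG to 30.8, 31.3, 28.3 and 24.7 in HFHG. The HFHG libraries spread more widely than the LG libraries, and all lay above them (0.63 ± 0.07, limma adjusted p = 2.83e-06). The share of Ldhb in the 2 subunits was 3.56% ± 0.156 in LG and 5.03% ± 0.448 in HFHG (SD, n = 4). The length behind the FPKM of Ldha is 2.94 times its longest GENCODE transcript while that of Ldhb equals its longest transcript, so this share understates Ldha against Ldhb if the longest transcript is the one expressed.

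Among the monocarboxylate transporters, Slc16a3 (MCT4, which exports lactate from glycolytic cells) was at 116, 115, 112.5 and 112 FPKM in HFHG and 151, 147, 151 and 160.1 in LG. It fell in all HFHG libraries (-0.42 ± 0.03, limma adjusted p = 5.06e-08). Slc16a1 (MCT1, which carries lactate in either direction) rose by 0.12 ± 0.02 (limma adjusted p = 4.07e-04). The share of Slc16a1 in the pair was 31.4% ± 0.829 in LG and 39.9% ± 0.227 in HFHG (SD, n = 4).

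The mitochondrial pyruvate carrier, a complex of MPC1 and MPC2, did not pass the test. Mpc2 was at 32.6, 37.3, 32.5 and 36.8 FPKM in HFHG and 30.3, 30.1, 32.4 and 36.5 in LG, ranges that overlapped (log2 difference 0.11, 95% confidence interval -0.03 to 0.25, limma adjusted p = 0.153). For Mpc1 the interval was -0.15 to 0.17. Mpc2 did pass without LG replicate 4, the library that stood apart (log2 fold change 0.17, limma adjusted p = 0.0175; range over 18 alternatives 0.0175 to 0.354). It also passed under quantile normalization (0.16, limma adjusted p = 0.0332) and after rescaling to the same sum (0.17, limma adjusted p = 0.0235).

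Glycerol-3-phosphate dehydrogenases shuttle reducing equivalents from cytosolic NADH to mitochondria. Gpd2, the mitochondrial enzyme, was at 5.97, 6.17, 5.69 and 5.82 FPKM in HFHG and 7.76, 7.60, 7.67 and 7.24 in LG. It was lower in each HFHG library (-0.35 ± 0.05, limma adjusted p = 3.94e-05). Gpd1l, a homologue of the cytosolic enzyme, rose by 0.29 ± 0.07 (limma adjusted p = 0.00255), so its share of the 3 genes went from 39.9% ± 2.11 to 50.8% ± 1.59 (SD, n = 4). Gpd1, the cytosolic enzyme, was below the filter with 2 to 13 reads: 0.0957, 0.111, 0.129 and 0.0685 FPKM in HFHG and 0.0833, 0.0886, 0.0605 and 0.0201 in LG. These ranges overlapped (exact two-sided permutation p = 0.114, n = 4).

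**Figure D4:**
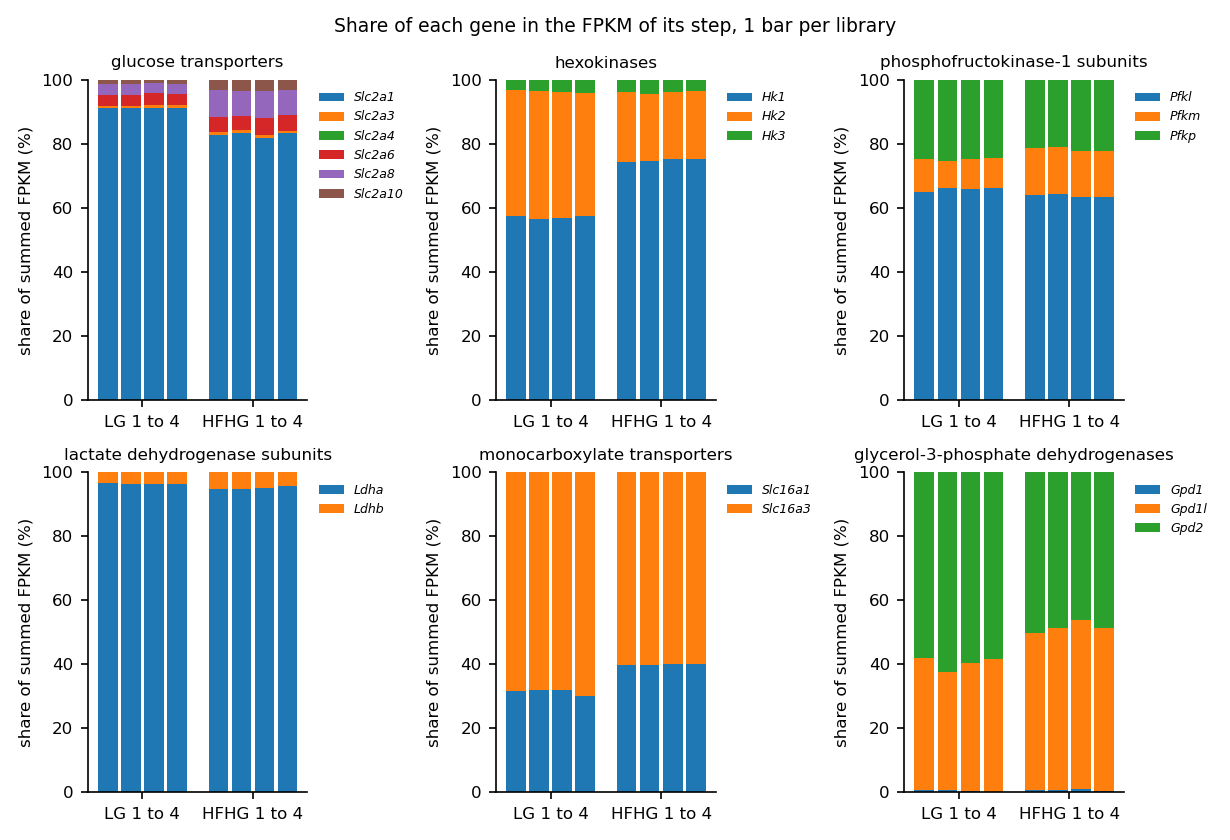
Share of each gene in the summed FPKM of its step, in percent, with 1 bar per library and 4 libraries per medium, for 6 steps with more than 1 gene. Hk2 takes 39.3% of hexokinase FPKM in LG and 21.3% in HFHG, and the bars within a medium are nearly alike.

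Across the 11 steps with more than 1 gene, the share of 18 of 32 genes did not overlap between the media. A higher share of 1 gene lowers the rest of its step, so the 18 are not separate results. Shares have no counterpart over all genes, but the FPKM of 59.2% of all tested genes did not overlap. Levels of different genes rest on the gene lengths used by the authors. These were 3.49 times the longest GENCODE transcript for Eno3, 2.52 times for Pkm, 2.17 times for Pfkfb2 and 0.201 times for Mpc2. For Mpc2 the longest transcript has 4015 bases, but the longest coding one has 1025, against a length of 806. Levels of such genes, and shares that involve them, are less certain than the change of a single gene. Pkm is alone in its step and has no share.

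Other sugar genes that are not among the 37 were looked at as a list of 46, of which 45 were in the table and 23 were tested. Of these, 13 rose and 6 fell (median log2 fold change 0.15). The background over all tested genes was 34% higher and 30.8% lower, with a median of 0.02. Bpgm, which makes 2,3-bisphosphoglycerate from a glycolytic intermediate, went from 10.2 ± 0.911 FPKM in LG to 22.6 ± 1.10 in HFHG (SD, n = 4; log2 fold change 1.14 ± 0.06). Khk, ketohexokinase of fructose metabolism, rose by 0.73 ± 0.12 and Slc2a13, the proton myo-inositol cotransporter, by 0.68 ± 0.17. Of 17 tested genes of glycogen metabolism, 4 rose and 7 fell (median -0.06), beside the same background. Gbe1, the branching enzyme, fell from 50.7 ± 0.989 to 21.4 ± 1.16 FPKM (-1.24 ± 0.04), Epm2a, the glycogen phosphatase laforin, changed by -0.67 ± 0.11, and Ppp1r3d, a glycogen-targeting subunit of protein phosphatase 1, rose by 0.99 ± 0.15.

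Hypoxia-inducible factors are known to drive Slc2a1, Hk2 and most glycolytic genes. Their own subunit genes went both ways: Hif1a fell by 0.27, while Epas1 rose by 0.91 and Arnt by 0.17 on the log2 scale (SE 0.03, 0.06 and 0.04). Of 30 tested genes of the hypoxia response that are not among the 37, 20 fell and 6 rose, and the median log2 fold change was -0.19. Among all tested genes, 30.8% fell and 34% rose. The genes with the largest changes went both ways. Ero1a, an oxidase of the endoplasmic reticulum, fell from 588 ± 23.2 FPKM in LG to 203 ± 1.38 in HFHG (-1.53 ± 0.03), while Lox, the collagen cross-linking enzyme, rose from 1542 ± 43.3 to 3100 ± 39.2 (1.01 ± 0.02) and Adm, the vasodilator peptide adrenomedullin, from 516 ± 6.18 to 1012 ± 6.23 (0.97 ± 0.02; SD, n = 4). Of 22 other regulators tested, 8 rose and 7 fell (median 0.03), beside the same background. Txnip, a glucose-induced inhibitor of glucose uptake, was at 2.92 ± 0.281 FPKM in LG and 188 ± 2.99 in HFHG, and its relative Arrdc4 at 9.03 ± 0.178 and 23.6 ± 1.24 (SD, n = 4; log2 fold changes 5.97 ± 0.06 and 1.37 ± 0.04). Myc, an activator of glycolytic genes, fell by 1.04 on the log2 scale (SE 0.06). The part of these factors and regulators in the glycolytic values was not tested.

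**Figure D5:**
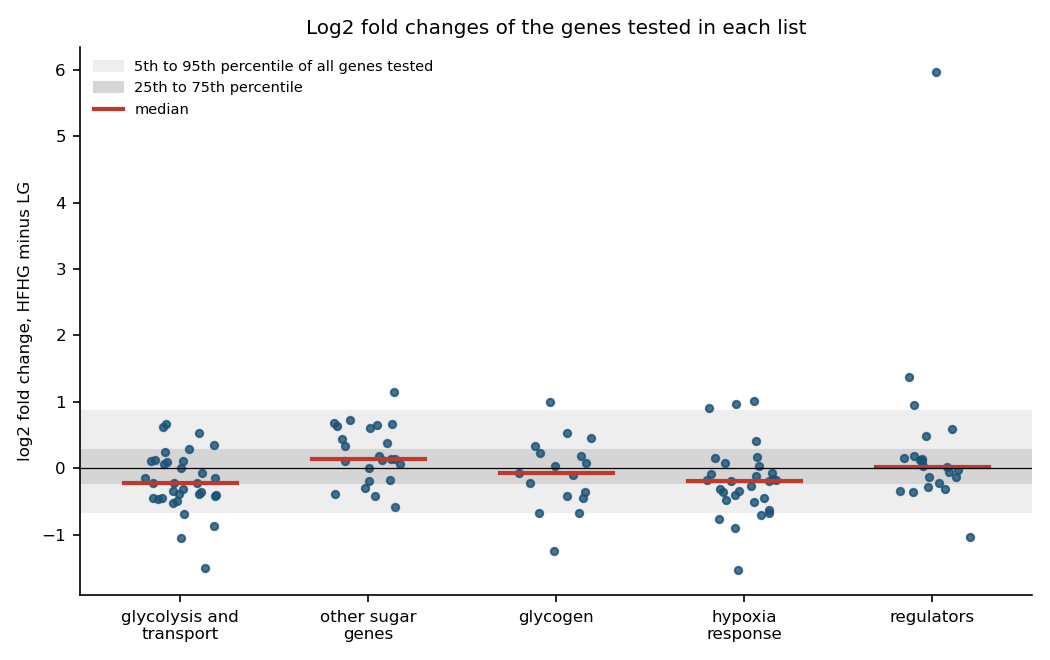
Log2 fold change (HFHG minus LG) of each tested gene in 5 lists, with 1 point per gene, a red line at the median of the list and grey bands for the percentiles of all 11710 tested genes. The median is -0.22 for glycolysis and transport, 0.15 for other sugar genes, -0.06 for glycogen, -0.19 for the hypoxia response and 0.03 for regulators, where the single point near 6 is Txnip.

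Of the remaining marker lists, 8 of 11 tested tendon genes rose and 2 fell. The largest rises were those of Col1a1 (1.36 ± 0.02), Thbs4 (1.14 ± 0.02) and Tnc (1.06 ± 0.03). Scx (0.61 ± 0.19) and Tnmd (0.86 ± 0.28) also rose, from low values. Mkx (-0.35 ± 0.07) and Egr1 (-0.40 ± 0.04) fell, and Dcn did not pass. Among all tested genes, 34% rose and 30.8% fell. Of 3 tested adipocyte markers 2 rose, among them Fabp4 (1.36 ± 0.06, from 26.6 ± 2.61 to 68.4 ± 3.03 FPKM; SD, n = 4). The other 5 of the 8 adipocyte markers, Adipoq, Plin1, Cidec, Lep and Pparg, stayed under 0.5 FPKM in every library. Of 2 tested endothelial markers 1 rose and 1 fell, and of 4 tested neuron and Schwann cell markers 1 rose. The part of any of these cell types in the glycolytic values was not tested.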

How the data were processed

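The 8 libraries (4 HFHG and 4 LG, grouped by the treatment label) were prepared from TSC cultures by a strand-specific mRNA protocol. The authors deposited FPKM per gene and library. The submitters' processing notes name HISAT2 2.1.0 and mm10, and the counting program and the annotation are not given in the sources used here. The handling of reads that fit several genes is thus unknown. Whole reads were recovered from the FPKM and served for depth and as an alternative (voom). limma 3.58.1 in R 4.3.3 (lmFit, eBayes with intensity trend) was run on log2(FPKM + 0.1) of 11710 genes with at least 0.5 FPKM in at least 4 libraries, without covariates, with Benjamini-Hochberg adjustment and calls at an adjusted p below 0.05. Fold changes on this scale understate those of low genes. In simulated data the fit found 74 of 100 log2 changes of 0.5 and 96 of 100 changes of 1, with 9 false calls. Smaller changes were not simulated, and far fewer genes were changed there than were called in these data. A fold change of 2 with an unadjusted p below 0.05 is the threshold of the study's methods. Genes below the filter were compared by an exact two-sided permutation test over 70 arrangements, whose smallest p is 0.0286. Values were printed per library for genes called with an absolute log2 fold change of at least 0.5, for the most abundant gene of each step and for genes below the filter, and up to 3 called genes were named per other list. Hif1a, Epas1, Arnt, Scx, Tnmd, Mkx, Egr1 and Dcn were named in addition. The 37 genes and all lists were chosen with earlier results of these data known. Promoter sequences are from RefSeq (GRCm38.p6) and gene positions from GENCODE M21. Alternatives were other pseudocounts, filters, scalings, a robust fit, voom, a replicate block and each library left out in turn.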

Additional observations from a re-analysis of the deposited data

Results flagged for a closer look

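Of 74 groups of 4 libraries examined (37 genes in 2 media), 5 held a library whose distance from the others was large for the range of its group. Chance flags about 1 in 20 groups. Slc2a1 was at 363.4 FPKM in LG replicate 4 (the other LG libraries at 348.2 to 349.9), Pfkl at 106.6 in LG replicate 4 (others 99.59 to 100) and Hk2 at 45.14 in LG replicate 4 (others 46.8 to 46.95). Slc2a3 was at 3.001 FPKM in LG replicate 2 (others 3.256 to 3.263), and Gapdh at 41.03 in HFHG replicate 4 (others 43.29 to 43.71). LG replicate 4 was also the library set apart by the second principal component. Each of these distances was smaller than the difference between the media for the same gene.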

How the results depend on the processing

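The 20 lower and 7 higher genes were 20 to 21 and 7 to 8 when each library was left out in turn, and 19 and 10 under quantile normalization. The count past a fold change of 2 was 1 instead of 2 under quantile normalization and when FPKM were rescaled to the same sum, where Slc2a1 was at -0.90 and -0.98 on the log2 scale. Tpi1 and Pkm turned from lower to higher under quantile normalization (log2 fold change 0.0473, limma adjusted p = 0.0329, and 0.133, limma adjusted p = 4.77e-05), and the cause was not tested. In the other 17 alternatives both stayed lower and passed. The same setting shrank Aldoa, Pgk1, Pgam1, Eno1 and Pfkl by over 1.5 times (to -0.25, -0.20, -0.14, -0.06 and -0.08), with each still lower and past the threshold, and raised Ldha to 0.33. Without a filter on low values, 0 genes instead of 3 lay below it. The shares without overlap were 18 to 21 of 32 when a library was left out. Pfkfb3, Pfkfb4, Eno3 and Mpc2 passed the threshold under 1 to 3 alternatives each. With the replicate number as a block, 20 genes were lower and 7 higher, as without it, and no call of these genes changed. The labels do not say whether equal numbers mark paired samples. Same-numbered libraries deviated together with correlations of -0.0736 to -0.00558, and all pairs across the media reached at most 0.0696. Correlations this small cannot settle whether the samples were paired. Genes with few reads (Slc2a4, Gpd1, Pfkfb1, Pgam2) are limited by depth.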
